A study of Arabidopsis thaliana with 8 samples.

Results

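R-loops were mapped in *Arabidopsis thaliana* by DRIP-seq, and the peaks described here are those that lay in pericentromeric DNA and touched no annotated gene. A peak was included when it lay wholly inside chromosome 1 from 12.6 to 17.2 Mb, chromosome 2 from 1.2 to 7.1 Mb, chromosome 3 from 10.7 to 16.1 Mb, chromosome 4 from 2.7 to 6.1 Mb or chromosome 5 from 9.9 to 14.6 Mb (TAIR10) and shared no base with a gene or pseudogene of the RefSeq annotation of TAIR10.1. The *ndx1-4* list held 1209 such peaks among 13549 peaks on chromosomes 1 to 5 (8.92%), and the Col-0 list held 1272 among 14180 (8.97%), which made 2481 of 27729 peaks in all. The *ndx1-4* line is a T-DNA insertion mutant of *NDX* (NODULIN HOMEOBOX), and Col-0 is the wild type. Whole seedlings of both genotypes were harvested at 10 days, so all cell types were pooled, and a signal in fewer cells cannot be told apart from a weaker signal per cell. Each genotype had 2 immunoprecipitation (IP) libraries made with the S9.6 antibody, 1 input library and 1 IP library from nucleic acid digested with RNase H, but 1 peak list. The mutant was represented by 1 allele. No value below therefore has an error between replicates, no genotype difference was tested, and the intervals are 95% intervals that cover counting error only. Sequencing depth is unknown, and a difference in depth cannot be told apart from a difference in genotype. Over the whole lists, 7.44% of *ndx1-4* peaks and 11.9% of Col-0 peaks shared no base with a peak of the other list.

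An R-loop forms where RNA pairs with one strand of DNA and displaces the other, and S9.6 binds the DNA:RNA hybrid. Hybrids in which the RNA strand is rich in purines (A and G) are known for their stability. Plant pericentromeres are packed as heterochromatin, carry DNA methylation and small RNAs, and consist largely of transposon remnants, many of which the annotation holds as pseudogenes. NDX is a homeodomain protein known from the antisense *COOLAIR* promoter of *FLC*, where it was found to bind the displaced single strand of an R-loop. The series was deposited as a study of NDX in the upkeep of heterochromatin, and the question here is where R-loops lie in the gene-free part of this heterochromatin and whether the map of the mutant differs there.

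One of the high-scoring loci shared by both lists is shown first, as an example with purine runs. The score is a whole number deposited with each peak, of a unit that is not given in the sources used here, so it ranks peaks within a list only. The peak was chr2:5588641-5589360 in *ndx1-4* (score 304) and chr2:5588681-5589360 in Col-0 (score 321), 312 bases before the start of the pseudogene AT2G13420. The 300 bases around the centre of the *ndx1-4* peak are shown, read from the plus strand of the RefSeq TAIR10.1 reference. Capitals mark runs of at least 15 purines, or of at least 15 pyrimidines where the purines are on the minus strand.
chr2:5588851-5589150: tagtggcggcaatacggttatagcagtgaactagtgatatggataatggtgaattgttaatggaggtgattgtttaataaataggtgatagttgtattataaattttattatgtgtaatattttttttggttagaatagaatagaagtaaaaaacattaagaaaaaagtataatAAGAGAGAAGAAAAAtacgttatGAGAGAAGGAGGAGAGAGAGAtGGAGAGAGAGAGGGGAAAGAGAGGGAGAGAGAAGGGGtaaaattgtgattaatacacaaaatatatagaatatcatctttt

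The longest purine run within the window was 37 bases, on the plus strand. That strand was 68% purine, against a median of 61.3% for the purine-rich strand over the gene-free pericentromeric peaks of each list.

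Many of the loci belonged to repeat families. Overlapping peaks of the lists made 1359 loci, and 340 of them (25%) fell into 60 families. Each locus of a family shared with another at least 20% of the distinct 31-base words of the shorter locus. The most common family had 114 loci on 5 chromosomes, of which 113 had a peak in both lists, with 113 peaks in *ndx1-4* and 114 in Col-0. The second had 40 loci (35 in both lists) and the third 23 (23 in both lists), each on 5 chromosomes. The windows of the highest-scoring peak of each of these families are shown so that the repeat itself can be read. They came from chr5:13263081-13263740 (score 262 in *ndx1-4*), chr1:14393181-14393860 (score 268 in *ndx1-4*) and chr3:13931181-13931760 (score 259 in Col-0). Build, strand and capitals are as above.
chr5:13263261-13263560: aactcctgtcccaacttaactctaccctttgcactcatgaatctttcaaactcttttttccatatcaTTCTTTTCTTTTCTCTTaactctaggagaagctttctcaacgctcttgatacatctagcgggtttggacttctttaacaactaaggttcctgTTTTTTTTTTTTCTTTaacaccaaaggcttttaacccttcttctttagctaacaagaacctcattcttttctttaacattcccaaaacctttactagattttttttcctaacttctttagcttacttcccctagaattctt
chr1:14393371-14393670: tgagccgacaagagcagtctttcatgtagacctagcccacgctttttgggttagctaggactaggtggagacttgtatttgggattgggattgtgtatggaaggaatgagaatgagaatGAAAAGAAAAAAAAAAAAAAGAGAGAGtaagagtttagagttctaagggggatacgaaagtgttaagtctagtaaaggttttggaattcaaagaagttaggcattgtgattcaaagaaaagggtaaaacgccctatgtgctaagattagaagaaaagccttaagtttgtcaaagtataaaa
chr3:13931321-13931620: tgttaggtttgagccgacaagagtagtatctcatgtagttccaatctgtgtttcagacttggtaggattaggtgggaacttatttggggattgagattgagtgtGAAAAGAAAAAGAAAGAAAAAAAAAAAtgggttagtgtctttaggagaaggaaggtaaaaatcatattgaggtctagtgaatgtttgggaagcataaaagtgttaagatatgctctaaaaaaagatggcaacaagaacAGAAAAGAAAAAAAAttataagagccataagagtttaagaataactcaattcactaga

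Each of the windows held A-rich purine runs, on the minus strand in the first family and on the plus strand in the others. The median purine share of the purine-rich strand over the loci was 62.3%, 65% and 65.7% for the families in order of size. Copies were then searched for in chromosomes 1 to 5, and counted where at least 80% of the printed window aligned at 80% identity or more. The first family had 131 copies that lay wholly in the gene-free pericentromere, and 127 of them (96.9%, 92.4 to 98.8%) touched a peak in *ndx1-4* and 128 (97.7%, 93.5 to 99.2%) in Col-0, with 3 in neither list. Of 58 gene-free pericentromeric copies of the second family 54 touched a peak in *ndx1-4* and 58 in Col-0. Of 37 copies of the third family 36 touched one in *ndx1-4* and 37 in Col-0. Only 2, 1 and 0 copies of these families lay on the arms, in the same order. The median identity of all copies to the printed window was 84.8%, 91.7% and 89.8%. Copies of a family share their sequence and are not independent sites, and the families were found among the peaks, so that a high share with peaks was partly given by their choice. A read from sequence present in several copies can be placed at any of them, and how such reads were placed is not given in the sources used here. Over the loci of the first family a median of 70% of the 31-base words occurred more than once in the reference. The part of read placement in these shares was not tested.

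Part of the loci resembled annotated genes or pseudogenes. A best match to an annotated gene or pseudogene, of at least 80% identity over at least 50% of the locus, was found for 449 of 1359 loci (33%), and it was a pseudogene for 350 and a gene for 99. The most frequent were 4 pseudogenes, AT5G32690 with 56 loci, AT2G11340 with 48, AT1G38360 with 41 and AT1G40101 with 27. The printed window of the first family came from a peak whose best match was AT2G11340, and that of the third from one whose best match was AT5G32690. No transposon annotation was used here.

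The fourth family, with 11 loci, lay in a gene-free stretch of 69032 bases on chromosome 4 (chr4:3194254-3263285), between the pseudogenes AT4G06510 and AT4G06511. The stretch held copies of TTTAGGG, the unit of plant telomeres, 859 exact matches or 12.4 per kb counting both strands. The peak farthest from any gene lay here, 32865 bases from AT4G06511 in *ndx1-4*. The *ndx1-4* peak is shown whole, from the plus strand, since the telomere-like units can be read in it (as ccctaaa, with variants such as ccctaca); it has no run long enough for capitals.
chr4:3230201-3230420: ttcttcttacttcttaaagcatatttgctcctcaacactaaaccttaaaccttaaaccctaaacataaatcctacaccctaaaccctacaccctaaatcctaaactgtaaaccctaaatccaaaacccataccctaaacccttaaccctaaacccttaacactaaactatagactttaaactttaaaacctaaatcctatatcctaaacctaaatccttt

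This stretch held 12 peaks in *ndx1-4* and 11 in Col-0, with 10 of each having a peak in the other list. The peaks were short, 200 to 400 bases in *ndx1-4* and 220 to 320 in Col-0, and their scores were 53 to 158 in *ndx1-4* and 64 to 171 in Col-0. All of them held at least 1 exact telomere unit. The median distance from one peak start to the next was 2600 bases in *ndx1-4* and 2620 in Col-0, and the sequence matched itself best at a shift of 2573 bases, where 37.6% of bases were identical. This shift was the best of many tried, and the match of unrelated sequence was not computed. Of the spacings, 6 of 11 in *ndx1-4* and 5 of 10 in Col-0 were between 2400 and 2700 bases, and the others lay outside this range. The range spans the median spacings and the best shift, so these counts are a description only. Unlike in the families above, most copies carried no peak. The highest-scoring locus of this family (chr4:3256481-3256760) had 122 copies in the gene-free pericentromere on 2 chromosomes, of which 12 (9.84%, 5.72 to 16.4%) touched a peak in *ndx1-4* and 11 (9.02%, 5.11 to 15.4%) in Col-0, with 109 in neither list. The median identity to this locus was 97.9% for copies with a peak in either list and 83% for those in neither, so most copies without a peak were diverged.

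The gap between genes with most peaks was also on chromosome 4, at chr4:4571913-4592805. It had a length of 20893 bases and lay between the pseudogenes AT4G07760 and AT4G07770. It held 23 peaks in *ndx1-4*, which covered 46.4% of it, and 19 in Col-0, which covered 42.1%. Of these, 19 in *ndx1-4* and 19 in Col-0 had a peak in the other list. Scores were moderate, 60 to 148 (median 85) in *ndx1-4* and 63 to 167 (median 95) in Col-0. The purine-rich strand was a median of 57.7% purine in the *ndx1-4* windows and 59.3% in the Col-0 windows, below the 61.3% of all gene-free pericentromeric peaks. The sequence of this gap was 61.9% repeated words. It matched itself best at a shift of 3415 bases, where 35.5% of bases were identical, again the best of many shifts and without a value for unrelated sequence. The median distance between peak starts in the gap was 790 bases in *ndx1-4* and 950 in Col-0. Across the pericentromeres, 240 bins of 100 kb held a median of 5 peaks in each list. The bin with this gap held 29 in *ndx1-4* and 25 in Col-0, and 7 bins held none in either list.

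**Figure D1:**
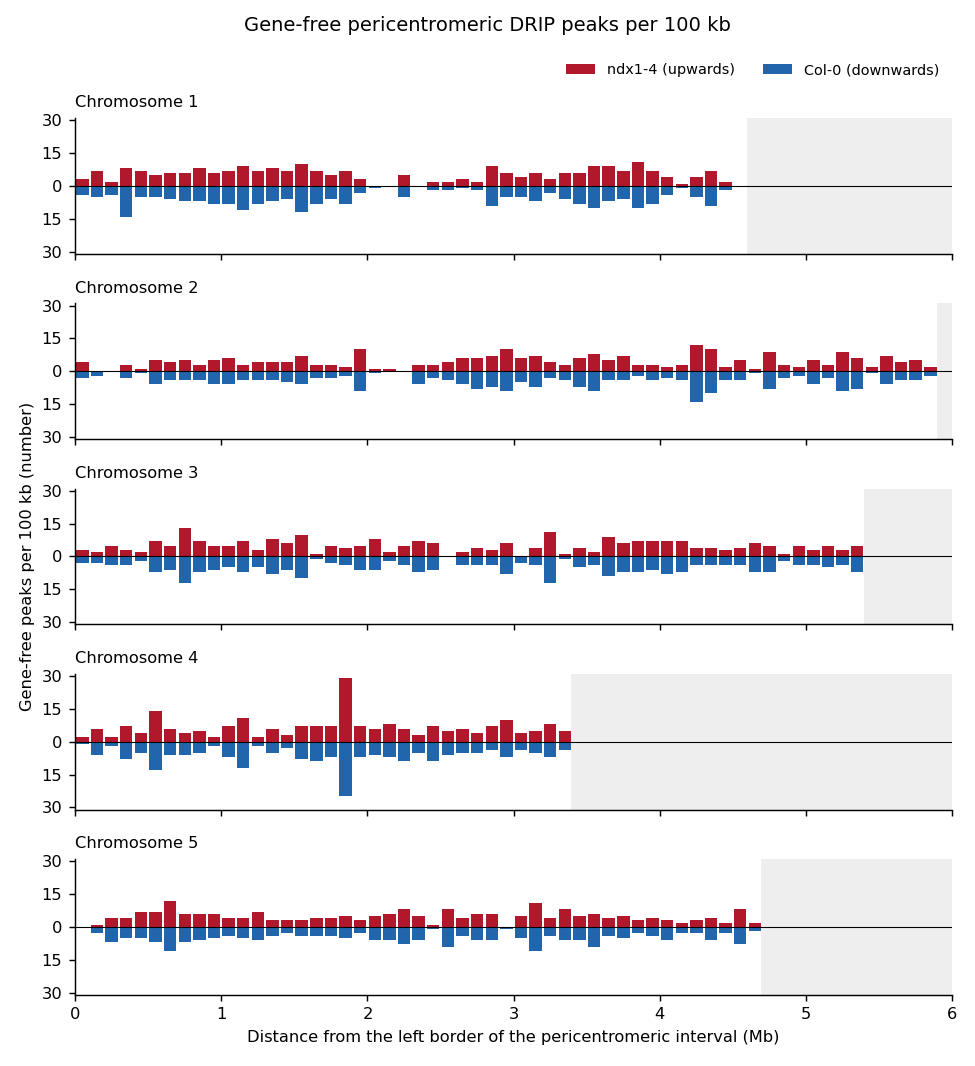
Gene-free pericentromeric peaks per bin of 100 kb, against distance from the left border of each pericentromeric interval (Mb), with *ndx1-4* upwards and Col-0 downwards and the area beyond the interval shaded. The highest bin is on chromosome 4, with 29 peaks in *ndx1-4* and 25 in Col-0, and 104 of the 240 bins hold equal numbers.

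The peaks were otherwise spread over all 5 pericentromeres. Chromosomes 1 to 5 held 243, 261, 262, 222 and 221 peaks in *ndx1-4* and 260, 268, 283, 222 and 239 in Col-0. Per Mb of gene-free sequence, chromosome 4 had 127 peaks in both lists, and the others 91.5 to 97.4 in *ndx1-4* and 94.4 to 105 in Col-0. This sequence includes unknown bases (N) of the reference, where no peak can lie. Chromosome 1 held 62998, 46085 and 49075 of them in neighbouring bins of 100 kb, so its density over known sequence was higher. The densities by repeated words below leave unknown bases out. *ndx1-4* had more peaks than Col-0 in 48 bins, fewer in 88 and the same number in 104. Bins in which 60% or more of the gene-free words were repeated held 57 peaks per Mb in *ndx1-4* and 60.6 in Col-0 (21 bins). Those with 40 to 60% held 90.9 in *ndx1-4* and 87.1 in Col-0 (19 bins). Bins with 20 to 40% repeated words held 117 in *ndx1-4* and 126 in Col-0 (98 bins), and those under 20% held 97.7 in *ndx1-4* and 102 in Col-0 (102 bins). Reads from repeated sequence are harder to place, and the part of this in the lower density was not tested.

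Peaks covered more of the gene-free pericentromere than of the pericentromeric pseudogenes in both lists, and less of it than of the pericentromeric protein-coding genes. The gene-free sequence, unknown bases included, made up 12.3 of 24 Mb (51.2%), in 5562 gaps between genes. Of the 2588 pericentromeric peaks of *ndx1-4* 46.7% lay in it, and of the 2687 of Col-0 47.3%. Any peak covered 4.62% of it in *ndx1-4* and 4.97% in Col-0. The same cover was 3.67% in *ndx1-4* and 3.86% in Col-0 over pericentromeric pseudogenes, 4.76% in *ndx1-4* and 5.19% in Col-0 over pericentromeric protein-coding genes, and 4.19% in *ndx1-4* and 4.41% in Col-0 over gene-free arm sequence. In all 4 compartments the *ndx1-4* cover was the smaller, as it was over the whole genome, at 4.49% in *ndx1-4* and 4.83% in Col-0.

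Most of the peaks lay within 1 kb of a gene or pseudogene, as did most of the gene-free sequence. The median distance to the nearest gene or pseudogene was 656 bases in *ndx1-4* and 660 in Col-0, and 63.9% of *ndx1-4* peaks and 64.4% of Col-0 peaks were within 1000 bases, a zone that held 57.2% of the gene-free bases. The nearest feature was the end of a pseudogene for 422 *ndx1-4* peaks (34.9%) and 453 Col-0 peaks (35.6%), the start of one for 375 (31%) in *ndx1-4* and 381 (30%) in Col-0, the start of a protein-coding gene for 206 in *ndx1-4* and 216 in Col-0, and the end of one for 125 in *ndx1-4* and 131 in Col-0. Since gaps differ in length, the cover of the bases was compared as well, here by gene-free peaks only. These peaks covered 3.89% of all gene-free pericentromeric bases in *ndx1-4* and 4.16% in Col-0. The cover was 3.68% in *ndx1-4* and 3.93% in Col-0 within 1000 bases of a gene, and 4.16% in *ndx1-4* and 4.47% in Col-0 farther away. Peaks covered 1.42% of the bases within 250 bases of a gene in *ndx1-4* and 1.56% in Col-0, where the rule leaves no room for a peak that reaches into the gene. The cover was highest from 500 to 1000 bases, at 5.82% in *ndx1-4* and 6.23% in Col-0. From 1000 to 2000 bases it was 4.68% in *ndx1-4* and 4.94% in Col-0, from 2000 to 5000 bases 4.64% in *ndx1-4* and 5.14% in Col-0, and over 5000 bases from any gene it was 1.95% in *ndx1-4* and 2.01% in Col-0. The last zone held only 0.966 Mb. Unknown bases of the reference were not taken out of any zone, and their part and that of repeated sequence in the low cover was not tested. Within 1 kb, sequence beyond the end of a pseudogene had a cover of 4.79% in *ndx1-4* and 5.22% in Col-0, and sequence before the start of one 3.6% in *ndx1-4* and 3.67% in Col-0. Beside protein-coding genes it was 2.9% before the start and 2.84% beyond the end in *ndx1-4*, and 3.05% and 3.01% in Col-0, in the same order. Peaks that reach into a gene are left out on every side, and short gaps leave less room for a gene-free peak. The part of this selection in the differences between sides was not tested. Bases beneath 1 peak are not independent, so these shares have no interval.

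**Figure D2:**
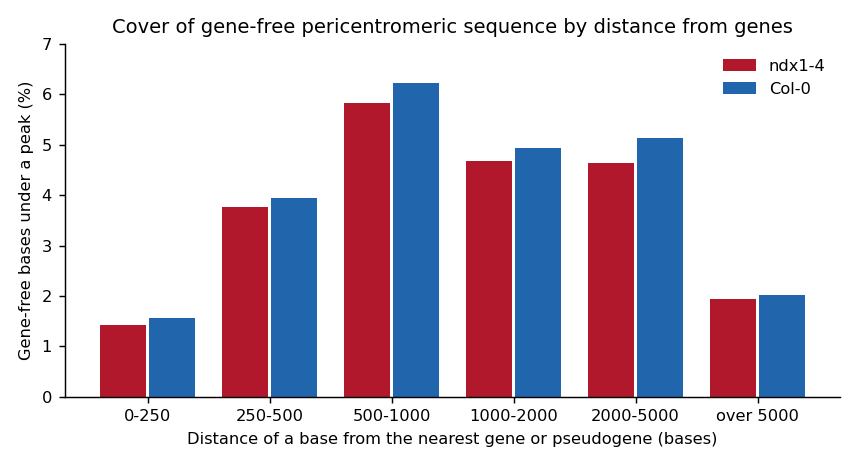
Share of gene-free pericentromeric bases under a gene-free peak (y axis, %) by distance from the nearest annotated gene or pseudogene (x axis, bases), with *ndx1-4* left of Col-0 in each pair. The cover peaks at 500 to 1000 bases (5.82% in *ndx1-4* and 6.23% in Col-0) and is lowest beside genes, where peaks that reach into a gene are left out by the rule. Unknown bases of the reference are included.

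The strands of the peaks were unequal in purines. The imbalance was measured in the 300 bases around each peak centre as the excess of purines on the richer strand over those on the other, in percent of bases, and is 0% where the strands are balanced. This measure and the purine runs were chosen after the data were seen. The median imbalance was 22.7% in both lists, with quartiles of 14.7 and 28.7% in *ndx1-4* and 15.3 and 28.7% in Col-0. The median of 35060 gene-free pericentromeric tiles of 300 bases was 8%, and that of 31880 tiles touching no peak 7.33%. It was 18.7% at the other peaks of either list, 22.7% at pericentromeric peaks over pseudogenes and 16.7% at gene-free peaks of the arms. The purine-rich strand was the plus strand in 52.9% of the *ndx1-4* peaks and 52.2% of the Col-0 peaks. The median GC content was 33.8% in *ndx1-4* and 33.9% in Col-0, close to the 33% of the tiles.

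A purine run of 20 bases or more, on either strand, lay in 301 *ndx1-4* windows (24.9%, 22.5 to 27.4%) and 317 Col-0 windows (24.9%, 22.6 to 27.4%), against 3.61% of the tiles. Its share differed little from that of the other peaks of the list, by -0.468 points in *ndx1-4* (-2.95 to 2.16) and -0.908 points in Col-0 (-3.33 to 1.65). It was 10.3 points higher than at pericentromeric pseudogene peaks in *ndx1-4* (6.75 to 13.7) and 9.03 points higher in Col-0 (5.48 to 12.4). Exact motifs were counted in the same windows on both strands. The A-tract AAAAAAAA lay in 40% of *ndx1-4* windows (37.2 to 42.7%) and 39.7% of Col-0 windows (37 to 42.4%), against 21.7% of the tiles. This was 11.7 points above the other peaks of the list in *ndx1-4* (8.9 to 14.6) and 11.6 points above them in Col-0 (8.84 to 14.4), while the difference from gene-free arm peaks was -5.45 points in *ndx1-4* (-8.87 to -1.98) and -6.39 points in Col-0 (-9.74 to -2.99).

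GAAGAAGA, whose letters overlap with purine runs, lay in 22.9% of *ndx1-4* windows and 22.1% of Col-0 windows, against 4.54% of the tiles. The other peaks of the lists, most of them over genes, held it more often, in 36.5% for *ndx1-4* and 37.4% for Col-0. GGGGG lay in 11.8% of *ndx1-4* windows and 12.2% of Col-0 windows, 5.54 points above the other peaks in *ndx1-4* (3.78 to 7.53) and 5.65 points above them in Col-0 (3.91 to 7.6), and the tiles held it in 8.09%. TTTAGGG lay in 6.87% of *ndx1-4* and 7% of Col-0 windows, against 7.65% of the tiles. TATATATA lay in 4.14% of *ndx1-4* and 3.93% of Col-0 windows, and in 8.04% of the tiles. A match says only that the letters are present.

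**Figure D3:**
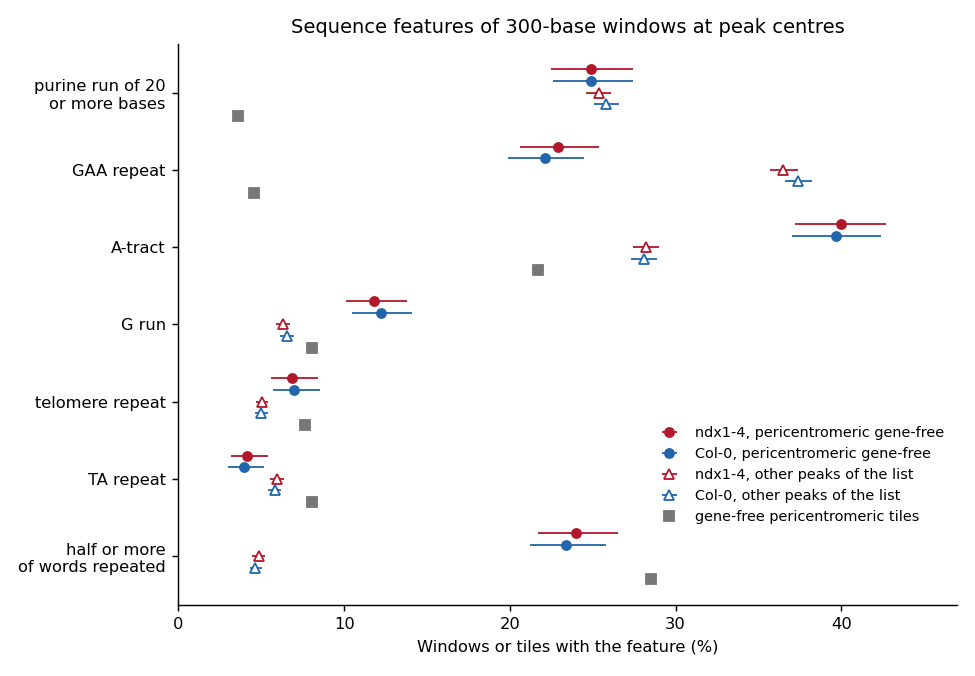
Share of 300-base windows at peak centres that hold each feature (x axis, %), for gene-free pericentromeric peaks (filled circles) and the other peaks (open triangles) of the *ndx1-4* and Col-0 lists with 95% Wilson intervals, and for gene-free pericentromeric tiles (grey squares). Purine runs are in 24.9% of windows of both lists and 3.61% of tiles, and at least 50% of the words are repeated in 24% of *ndx1-4* peaks, 23.4% of Col-0 peaks and 28.5% of tiles.

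Repeated sequence was more frequent in these peaks than in the rest of the lists and less frequent than in the tiles, and it was not distinguishable from that of peaks over pericentromeric pseudogenes. In 290 *ndx1-4* peaks (24%, 21.7 to 26.5%) and 298 Col-0 peaks (23.4%, 21.2 to 25.8%) at least 50% of the 31-base words occurred more than once in the reference. This was 19.1 points above the other peaks in *ndx1-4* (16.8 to 21.7) and 18.8 points above them in Col-0 (16.5 to 21.2). Peaks over pericentromeric pseudogenes had a share of 26.6% in *ndx1-4* and 26.2% in Col-0, a difference of -2.65 points in *ndx1-4* (-6.61 to 1.24) and -2.8 points in Col-0 (-6.69 to 0.998), so the surplus was not particular to the gene-free peaks. The share of the tiles, which are 300 bases long where peaks vary in length, was 28.5%. At the other end, 28.5% of *ndx1-4* peaks and 28.3% of Col-0 peaks held no repeated word at all, against 28.9% of the tiles.

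By score the gene-free pericentromeric peaks stood somewhat above the rest of their lists. Their median percentile was 59 in *ndx1-4* and 58.6 in Col-0, against 49.5 for the other *ndx1-4* peaks and 49.8 for the other Col-0 peaks. The top decile of the list held 161 of the *ndx1-4* peaks (13.3%), 3.57 points above the other peaks (1.69 to 5.66), and 168 of the Col-0 peaks (13.2%), 3.46 points above them (1.63 to 5.5). Against gene-free arm peaks the surplus was 4.52 points in *ndx1-4* (2.33 to 6.83) and 5.16 points in Col-0 (3.05 to 7.39). Against peaks over pericentromeric pseudogenes the interval spanned 0, with a difference of 2.05 points in *ndx1-4* (-0.958 to 4.92) and 1.48 points in Col-0 (-1.51 to 4.33). Of the top-decile peaks shared with the other list, 34.4% in *ndx1-4* and 33.3% in Col-0 were mostly repeated words. Over all gene-free peaks this share was 24% in *ndx1-4* and 23.4% in Col-0, and over the unshared top-decile Col-0 peaks 12.5%. The part of repeated sequence in the score surplus was not tested. The median peak was 360 bases long (quartiles 260 and 480 bases) in *ndx1-4* and in Col-0, against 340 bases for the other peaks. The longest in *ndx1-4* was 1720 bases (chr3:15831221-15832940, nearest the start of AT3G44070) and had a partner of 1740 bases in Col-0.

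The maps of the genotypes were much alike in this sequence. *ndx1-4* had 0.95 times as many of the peaks as Col-0 (0.879 to 1.03), and they covered 478120 bases in *ndx1-4* and 511200 in Col-0, a ratio of 0.935. The whole lists held 13549 peaks in *ndx1-4* and 14180 in Col-0, so a lower number in *ndx1-4* was not particular to this sequence. Of the 551540 bases under a peak of either list, 79.4% were under one in both. A peak was called shared when at least 1 base was common to a peak of the other list, its partner. In *ndx1-4* 1130 of 1209 had a partner (93.5%, 91.9 to 94.7%), and 79 had none, against 7.44% without a partner over the whole *ndx1-4* list. In Col-0 1127 of 1272 had a partner (88.6%, 86.7 to 90.2%), and 145 had none, against 11.9% over the whole Col-0 list. The share with a partner was 0.994 points above that of the other peaks in *ndx1-4* (-0.607 to 2.34) and 0.531 points above it in Col-0 (-1.41 to 2.26), so sharing was not distinguishable from the rest of the lists. Against gene-free arm peaks it was 2.9 points higher in *ndx1-4* (0.98 to 4.69) and 1.76 points higher in Col-0 (-0.524 to 3.94). By chromosome it ran from 91.9 to 95.5% in *ndx1-4* and from 85.8 to 91.4% in Col-0. Of the 1359 loci, 1114 had a gene-free peak in both lists, 90 in *ndx1-4* only and 155 in Col-0 only.

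The peaks without a partner were of 2 sorts. In *ndx1-4* 78 of the 79 lay below the top score decile, with a median length of 200 bases, the shortest the lists hold. In Col-0 121 of the 145 lay below it, with a median length of 220 bases. The remaining 24 Col-0 peaks lay in the top decile and had a median length of 630 bases (260 to 1820) and a median purine share of 69.8%, against 64.3% for the 144 top-decile Col-0 peaks with a partner. Their nearest *ndx1-4* peak was 480 to 49400 bases away. The share of Col-0 peaks with a partner was thus 97.9% in the ninth decile but 85.7% (79.6 to 90.2%) in the tenth, and the other Col-0 peaks had 83.9% there. In *ndx1-4* 160 of 161 top-decile peaks had a partner. Of the 11 peaks within the top 1% of the list, 1 in *ndx1-4* (9.09%, 1.62 to 37.7%) and 7 in Col-0 (63.6%, 35.4 to 84.8%) had none. The other peaks in the top 1% had none in 6 of 125 in *ndx1-4* (4.8%, 2.22 to 10.1%) and 60 of 131 in Col-0 (45.8%, 37.5 to 54.3%), and the intervals overlapped in both lists. Of the 24 unshared peaks 3 (12.5%) consisted mostly of repeated words, against 48 of the 144 shared ones (33.3%).

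**Figure D4:**
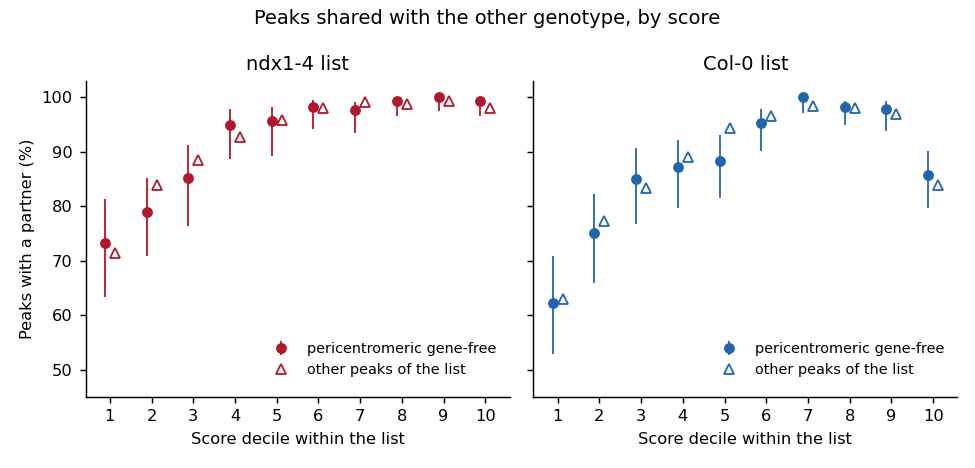
Share of peaks with a partner in the other list (y axis, %) by score decile within the list (x axis), for gene-free pericentromeric peaks (filled circles, 95% Wilson intervals) and the other peaks (open triangles), in *ndx1-4* (left) and Col-0 (right). The share is 99.4% in the tenth *ndx1-4* decile but 85.7% in the tenth Col-0 decile, and the other peaks of each list follow the same course.

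The highest-scoring peak without a partner is shown for each list, to let the sequences be read against the shared one above. In *ndx1-4* it was chr2:4040601-4041040 (score 312, 440 bases), 123 bases before the start of the pseudogene AT2G10490 and 21120 bases from the nearest Col-0 peak. In Col-0 it was chr2:3110821-3111160 (score 505, 340 bases), 378 bases beyond the end of the pseudogene AT2G07470 and 1080 bases from the nearest *ndx1-4* peak. Build, strand and capitals are as above.
chr2:4040671-4040970: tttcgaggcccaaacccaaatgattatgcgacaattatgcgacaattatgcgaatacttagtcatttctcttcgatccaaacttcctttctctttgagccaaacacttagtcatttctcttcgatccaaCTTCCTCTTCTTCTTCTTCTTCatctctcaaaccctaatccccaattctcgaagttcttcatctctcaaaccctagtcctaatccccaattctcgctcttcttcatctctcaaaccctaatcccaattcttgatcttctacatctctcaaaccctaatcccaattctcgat
chr2:3110841-3111140: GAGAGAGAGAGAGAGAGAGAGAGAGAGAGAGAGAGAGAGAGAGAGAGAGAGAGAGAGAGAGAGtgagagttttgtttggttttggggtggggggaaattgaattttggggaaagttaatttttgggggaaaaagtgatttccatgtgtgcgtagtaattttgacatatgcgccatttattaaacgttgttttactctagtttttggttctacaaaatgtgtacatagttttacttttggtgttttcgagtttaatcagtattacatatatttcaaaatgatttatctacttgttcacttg

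The *ndx1-4* window held a pyrimidine run of 22 bases and was 68% purine on the minus strand. The Col-0 window opened with a run of 63 bases of alternating G and A, but as a whole it was only 58.3% purine on the plus strand. This was below the median of 61.3% over the gene-free pericentromeric peaks of Col-0. Among the other Col-0 peaks without a partner, chr4:6057261-6057960 (score 418) held a purine run of 53 bases. The next was chr1:13591981-13592580 (score 376), whose sequence matched *UMAMIT1* (AT5G45370), a gene of the nodulin MtN21-like transporter family. The longest gene-free peak of Col-0, chr4:3413001-3414820 (score 332, 1820 bases, 3442 bases from the start of AT4G06548), was also unshared, with 1060 bases to the nearest *ndx1-4* peak. In *ndx1-4* the next unshared peaks by score, on chromosomes 1 and 4, had scores of 113 and 109 and lengths of 220 and 240 bases.

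Widths were compared in 1121 one-to-one pairs with at least 1 gene-free peak. The *ndx1-4* peak was wider in 354 (31.6%, 28.9 to 34.4%), narrower in 445 (39.7%, 36.9 to 42.6%) and equal in 322. Over the other 11185 pairs it was wider in 28.3% and narrower in 42.7%. The quartiles of the width difference were -20 and 20 bases, 1 step of the 20-base grid on which the peaks start. Both edges were identical in 21.4% of pairs, against 21.8% of the other pairs. A difference of at least 100 bases was seen in 23 pairs (2.05%) with the wider peak in *ndx1-4* and in 49 (4.37%) with the narrower one. Over the other pairs these shares were 2.92% and 4.53%, in the same order. The pair narrowest in *ndx1-4* relative to Col-0 was chr2:6473601-6473820, where the *ndx1-4* peak was 220 bases and the Col-0 peak 680 bases long, near the pseudogene AT2G14990. Among those widest in *ndx1-4* were chr3:11529881-11530480, 600 bases against 380 in Col-0 beside *PMAT2*, a malonyltransferase gene, and chr2:4080361-4081020, 660 bases against 480 in Col-0 near *LCR29*, which encodes a small secreted cysteine-rich protein. Across the pairs the Spearman correlation was 0.959 for score percentile and 0.927 for width, given as a description over pairs that share the same sequence. Over the other pairs it was 0.953 for score percentile and 0.922 for width.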

How the data were processed

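DRIP-seq reads of 8 libraries (4 per genotype) were aligned and peaks called by the submitters, whose processing notes name Bowtie2, SAMtools, Picard, deepTools and MACS2 and the TAIR10 build. The authors deposited 1 peak list per genotype that gives the edges of each peak and an integer score, and how the IP, input and RNase H libraries entered the calls is not given in the sources used here. The deposited score has no stated unit and was used for ranks within a list. Neither list held a score below 53 or a peak shorter than 200 bases. Peaks ended at chromosome ends of TAIR10.1 (2 in each list) and never past one, so RefSeq coordinates were used. The 27 *ndx1-4* and 23 Col-0 organelle peaks were left out.

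The peaks, gene-free class and motif lists were chosen with earlier results of these data known. Shares have Wilson intervals and differences between shares of one list Newcombe intervals (95%). Both treat peaks as independent, although 25% of the loci fell into families of shared sequence, so the intervals may be too narrow. Repeated words are runs of 31 bases that recur in the nuclear and organelle reference on either strand. Named peaks were, per list, the 10 highest-scoring, 5 longest, 5 highest-scoring unshared, 3 farthest from genes, 3 pairs of largest width difference each way and the highest-scoring per chromosome, and a selection of these is printed. Of the high-scoring shared loci, 2 are not reported here. The interval and overlap code was tested on simulated data. Alternatives varied the score and length minimum, overlap, merging, pericentromere borders, gene types and margins, repeats and word length. Python 3.11.15, numpy 2.4.6, scipy 1.17.1, matplotlib 3.10.9 and blastn 2.17.0 were used.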

Additional observations from a re-analysis of the deposited data

How the results depend on the processing

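Of 86 values under alternative settings, 67 stayed within 1.5 times the count or within the 95% interval of the share or ratio. The other 19 moved beyond these limits. The ratio of *ndx1-4* to Col-0 peaks ran from 0.943 to 0.976, and narrower pairs outnumbered wider ones in all 7 settings run. With peaks at or above the median score of their list only, 730 *ndx1-4* and 748 Col-0 peaks were in the class. The cover by gene-free peaks was 2.75% in *ndx1-4* and 2.91% in Col-0. With all peaks used it was 3.89% in *ndx1-4* and 4.16% in Col-0. Of the *ndx1-4* peaks at or above the median score, 90.3% had a partner, and 27.9% of pairs were wider in *ndx1-4*. Both lists were cut, so a Col-0 partner below the Col-0 median did not count. Against the full Col-0 list, 97.7 to 100% of the gene-free peaks in each of the *ndx1-4* score deciles 6 to 10 had a partner. Under the median-score setting 27.3% of *ndx1-4* and 26.5% of Col-0 peaks were mostly repeated words, and 43.4% of *ndx1-4* and 43.6% of Col-0 peaks held an A-tract. With a minimum of 300 bases there were 804 *ndx1-4* peaks, and the cover was 3.12% in *ndx1-4* and 3.36% in Col-0. Without peaks of mostly repeated words the cover was 2.89% in *ndx1-4* and 3.13% in Col-0, and A-tracts were in 36.9% of *ndx1-4* and 36.7% of Col-0 peaks. Words of 50 bases gave 12.8% mostly repeated peaks in each list. The smaller counts and covers follow from the fewer peaks used. For the shares of wider pairs, repeated words and A-tracts the cause was not tested.

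No paired analysis was possible because the 2 IP replicates of a genotype share 1 peak list. Depth, the unit of the score and the placement of reads from repeated sequence are unknown, and no value has a replicate error.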
